A study of Bos taurus with 8 samples.

Results

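The iron genes of the fetal calf liver were examined in low-nutrition (LN) and high-nutrition (HN) fetuses as a set of 10 genes chosen by name for iron storage and the control of hepcidin: HAMP, TFR2, TFRC, FTH1, FTL, SLC40A1, BMP6, CP, HMOX1 and ACO1. Probes were assigned to a gene when the RefSeq accession on the array belonged to it, which gave 26 of 43637 probes for 9 of the 10 genes, among 12603 genes with a matched probe. All 26 probes were detected, meaning that 4 or more of the 8 arrays read the probe well above background, and 10860 genes in all had a detected probe. No probe was matched to BMP6, the main ligand that raises hepcidin, and BMP6 was not analysed here.

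Liver was taken from Japanese Black fetuses 8.5 months after conception, at day 260 ± 8.3 of gestation by the protocol. Dams of LN fetuses were given 60% of their nutritional requirement and dams of HN fetuses 120%, over the whole gestation, and no group received exactly the requirement. The methods state that all pregnancies came from male-sorted semen of a single sire, and that of the dams assigned (5 LN and 6 HN) fetuses were chosen by body weight, the 4 lightest for LN and the 4 heaviest for HN. Each array carried RNA of 1 fetus by the labels, although the design text mentions pooling of RNA by group. The 4 LN arrays lay on 1 slide and the 4 HN arrays on another, so slide, scan and diet cannot be told apart.

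Iron that is not in use is kept in ferritin, a shell of heavy (FTH1) and light (FTL) chains, and leaves cells through ferroportin (SLC40A1). Hepcidin, the peptide hormone encoded by HAMP, is made by hepatocytes when iron or inflammatory signals are high, and it removes ferroportin from the cell surface. In cells short of iron, iron regulatory proteins, one of which is ACO1, bind to ferritin and transferrin receptor transcripts, which blocks the translation of the former and stabilises the latter. In the fetus the liver is also a site of blood formation, and its resident macrophages take up worn red cells and recycle their haem iron.

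The signal of a probe is given below as log2 of its background-subtracted intensity after quantile normalization, and a difference is always LN minus HN on this log2 scale. With 4 arrays a group, precision is limited by their number. Between 32635 and 34369 of 43803 spots were well above background on the 8 arrays, and 0 were saturated. The tissue label was checked against 8 hepatocyte genes, of which 7 were detected (APOB was not matched): their mean log2 signal was between 17.69 and 17.85 in LN and between 17.62 and 17.83 in HN, with TTR, the plasma carrier of thyroid hormone, the brightest. Because whole liver was used, fewer cells of a type and less RNA per cell cannot be told apart.

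None of the 9 measured iron genes passed a test between LN and HN. By limma, 0 of 9 passed an adjusted p of 0.05, as did 0 of all 33439 detected probes (0%), and the lowest value among the 9 was 0.836. At an unadjusted p of 0.05, 0 of 9 passed, where 6.05% of all 10860 detected genes did. The methods' t-test also gave 0 of 9 at an unadjusted p of 0.05. The LN and HN values overlapped for each of the 9 genes, where 4.14% of all detected genes had groups that did not overlap. With quantile normalization, 5 genes were higher and 4 lower in LN, where 51.6% of all detected genes were higher and 48.4% lower. With scaling to the 75th percentile 3 were higher and 6 lower, and 45.6% of all genes were higher. The median difference of the 9 genes was 0.044 beside 0.0074 over all detected genes, and with scaling to the 75th percentile it was -0.029 beside -0.023. Without HN fetus L10 the median of the 9 was -0.155.

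**Figure D1:**
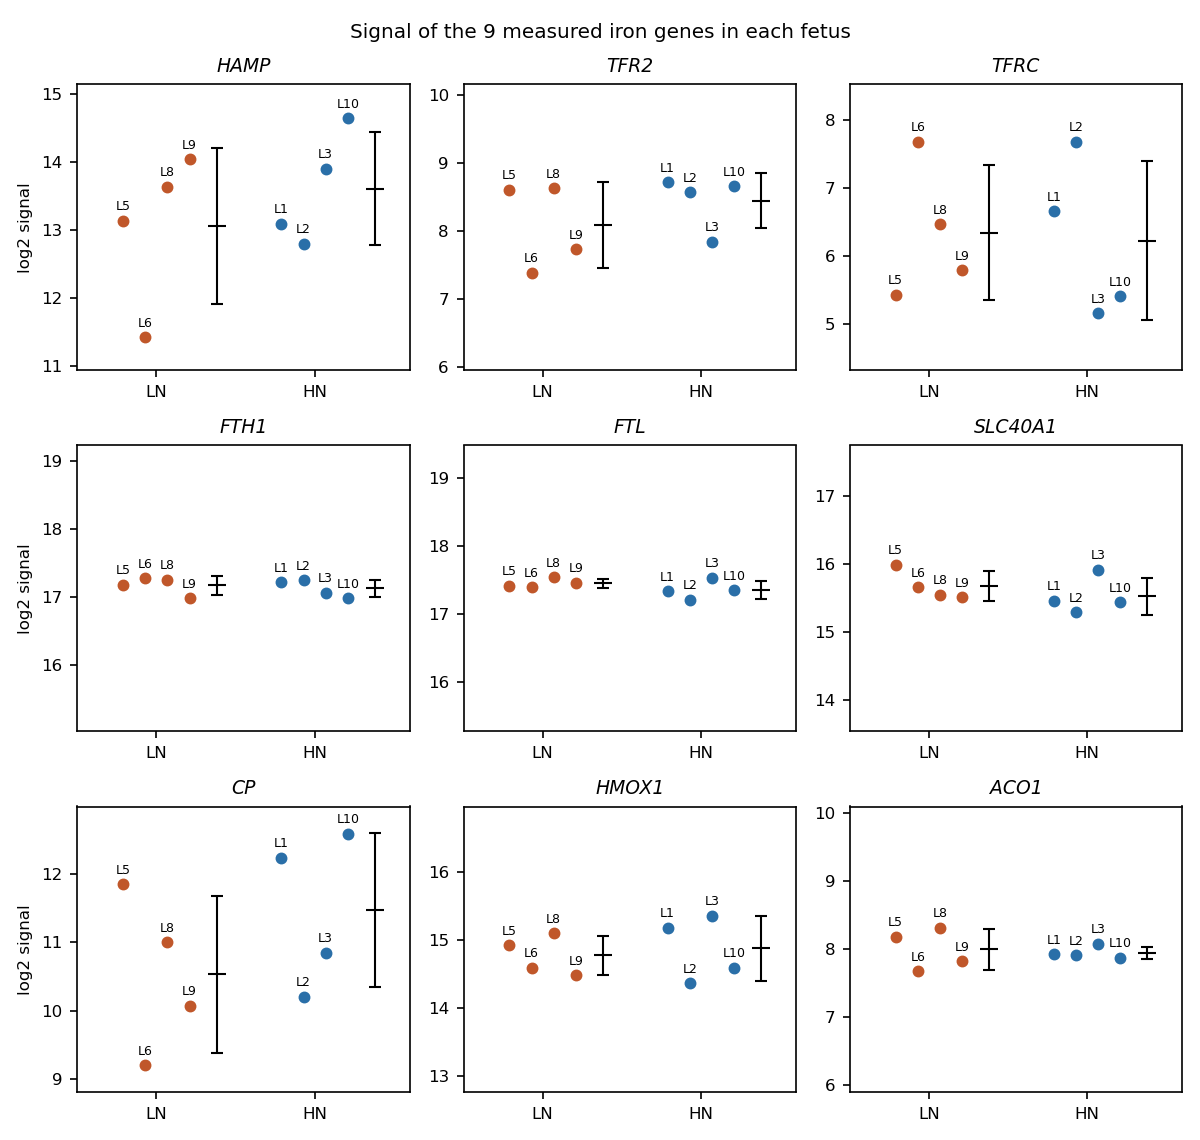
Log2 signal of each measured iron gene (vertical axis, 4.2 log2 units tall in every panel) in the 4 LN and 4 HN fetuses, named by their number, with the mean and SD of each group as a black bar (n = 4). HAMP, CP and TFRC spread over several log2 units within a group, while FTH1 and FTL stay within 0.33, and the groups overlap in every panel.

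HAMP (NM_001114508), the hepcidin gene, had a log2 signal of 13.14, 11.43, 13.63 and 14.04 in LN fetuses L5, L6, L8 and L9, and of 13.09, 12.80, 13.90 and 14.65 in HN fetuses L1, L2, L3 and L10. The lowest value was that of LN fetus L6 and the highest that of HN fetus L10, and the other 6 fetuses lay between 12.80 and 14.04 with the groups mixed. The mean was 13.06 ± 1.15 in LN and 13.61 ± 0.83 in HN (SD, n = 4 each), a difference of -0.55 (± 0.59 SE, limma adjusted p = 0.896, p = 0.543 by exact permutation). The 95% interval ran from 0.268-fold to 1.74-fold of the HN level. Without LN fetus L6 the difference was -0.0055.

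TFR2 (NM_001177741), the hepatocyte receptor that senses transferrin-bound iron and feeds into hepcidin control, read 8.61, 7.39, 8.63 and 7.74 in LN fetuses L5, L6, L8 and L9, and 8.72, 8.57, 7.85 and 8.66 in HN fetuses L1, L2, L3 and L10. LN fetuses L6 and L9 and HN fetus L3 were low, and the remaining 5 fetuses lay between 8.57 and 8.72. Over all detected probes the arrays of these 3 fetuses correlated with each other at r between 0.9862 and 0.9876. With the other 5 arrays they correlated at r between 0.9769 and 0.9854. The part of this in the TFR2 values was not tested. The difference was -0.36 (± 0.32 SE, limma adjusted p = 0.870, p = 0.257 by exact permutation), with a 95% interval from 0.470-fold to 1.30-fold of the HN level. Leaving out LN fetus L6 gave -0.12, and leaving out HN fetus L3 gave -0.56.

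TFRC (NM_001206577), the receptor by which most cells take up transferrin iron and which is abundant on red cell precursors, read 5.43, 7.68, 6.47 and 5.79 in LN fetuses L5, L6, L8 and L9, and 6.66, 7.68, 5.16 and 5.41 in HN fetuses L1, L2, L3 and L10. One fetus of each group, LN L6 and HN L2, stood at the top with the same signal to 2 decimals. The difference was 0.12 with quantile normalization and -0.029 with scaling to the 75th percentile (± 0.64 SE in the former, limma adjusted p = 0.982, p = 0.800 by exact permutation), and its 95% interval ran from 0.396-fold to 2.98-fold of the HN level. Its 3 probes differed by 0.12, 0.36 and 0.095 and followed each other over the fetuses, with r between 0.94 and 0.99 across the 8 arrays.

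By the brightest probe of each gene, the ferritin transcripts had the narrowest ranges of the set, although 2 dimmer SLC40A1 probes (0.53 and 0.46) spanned less than the dimmest FTH1 and FTL probes (0.56 and 0.62). FTH1 (NM_174062) ran from 16.97 in LN fetus L9 to 17.27 in LN fetus L6, and all 4 HN fetuses lay within this range (17.22, 17.24, 17.06 and 16.97 in L1, L2, L3 and L10). FTL (NM_174792) read 17.41, 17.39, 17.54 and 17.46 in LN fetuses L5, L6, L8 and L9, and 17.33, 17.21, 17.53 and 17.35 in HN fetuses L1, L2, L3 and L10. By this brightest FTL probe, HN fetuses L1, L2 and L10 lay below all LN fetuses, and HN fetus L3 lay at the LN level. This order did not hold on every FTL probe, and on a dimmer one LN fetus L6 (13.62) was the lowest of the 8 fetuses. The 5 FTL probes correlated over the 8 arrays at r between 0.47 and 0.95.

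The difference was 0.044 for FTH1 (± 0.12 SE, limma adjusted p = 0.961, p = 0.714 by exact permutation) and 0.095 for FTL (± 0.11 SE, limma adjusted p = 0.907, p = 0.257 by exact permutation). With scaling to the 75th percentile FTH1 differed by 0.10, and after normexp background correction FTL differed by 0.039. Leaving out HN fetus L2 or L3 gave 0.046 or 0.15 for FTL. The 95% intervals were the narrowest of the set, from 0.851-fold to 1.25-fold for FTH1 and from 0.895-fold to 1.27-fold for FTL. All 6 FTH1 probes and all 5 FTL probes were higher in LN on average, by 0.042 to 0.12 and by 0.092 to 0.19. These probes measure the same transcripts and are not replicates of the diet. The spread over the fetuses depended on probe and scaling: for FTH1 it was 0.29 by the brightest probe and 0.56 by the dimmest, and for FTL 0.33 and 0.62. With scaling to the 75th percentile the brightest probes spread over 0.56 and 0.54. Mammalian genomes hold many processed copies of the ferritin genes, and whether probes also bind transcripts of such copies was not tested.

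SLC40A1 (NM_001077970), the iron exporter that hepcidin acts on, read 15.99, 15.66, 15.55 and 15.51 in LN fetuses L5, L6, L8 and L9, and 15.46, 15.29, 15.91 and 15.44 in HN fetuses L1, L2, L3 and L10. By this brightest probe, every HN fetus apart from L3 lay below every LN fetus. On another SLC40A1 probe HN fetus L10 (12.29) lay above LN fetus L5 (12.17). The 3 probes correlated over the 8 arrays at r between 0.63 and 0.73. The difference was 0.15 by the brightest probe (± 0.17 SE, limma adjusted p = 0.904, p = 0.371 by exact permutation), and the other probes differed by -0.0031 and -0.0035, so the probes did not share a direction. Leaving out LN fetus L5 gave 0.047 for the brightest probe, and leaving out HN fetus L3 gave 0.28.

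CP (NM_001256556) encodes ceruloplasmin, the copper enzyme of plasma that oxidises iron as it leaves cells, and had the largest difference of the set. It read 11.86, 9.20, 11.003 and 10.07 in LN fetuses L5, L6, L8 and L9, and 12.24, 10.20, 10.85 and 12.60 in HN fetuses L1, L2, L3 and L10. HN fetuses L1 and L10 were above every LN fetus, HN fetuses L2 and L3 lay among the LN fetuses, and LN fetus L6 was lowest. The mean was 10.53 ± 1.15 in LN and 11.47 ± 1.13 in HN (SD, n = 4 each), a difference of -0.94 (± 0.67 SE, limma adjusted p = 0.836, p = 0.314 by exact permutation). All 4 CP probes were lower in LN, by 0.87 to 1.05 on the log2 scale, and their correlations over the 8 arrays were between 0.96 and 1.00. The dimmest of them was well above background on 3 of the 4 LN arrays and on all HN arrays. The 95% interval of the brightest probe ran from 0.180-fold to 1.51-fold of the HN level. It was -0.50 without LN fetus L6, the smallest value when single fetuses were left out.

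HMOX1 (NM_001014912), the enzyme that opens the haem ring and frees its iron, read 14.93, 14.60, 15.10 and 14.49 in LN fetuses L5, L6, L8 and L9, and 15.18, 14.36, 15.36 and 14.60 in HN fetuses L1, L2, L3 and L10. The HN fetuses held both the highest and the lowest value. The difference was -0.099 (± 0.25 SE, limma adjusted p = 0.958, p = 0.714 by exact permutation), and it was 0.062 without HN fetus L3.

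ACO1 (NM_001075591), the cytosolic aconitase that becomes an iron regulatory protein when it loses its iron-sulphur cluster, read between 7.67 (LN fetus L6) and 8.31 (LN fetus L8). The 4 HN fetuses lay closer together, between 7.87 and 8.08, and inside the LN range. Its difference was 0.050 by the brightest probe with quantile normalization and -0.0025 with scaling to the 75th percentile, and 0.24 by its other probe (± 0.16 and 0.23 SE, limma adjusted p = 0.967 and 0.879, p = 0.771 and 0.371 by exact permutation).

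**Figure D2:**
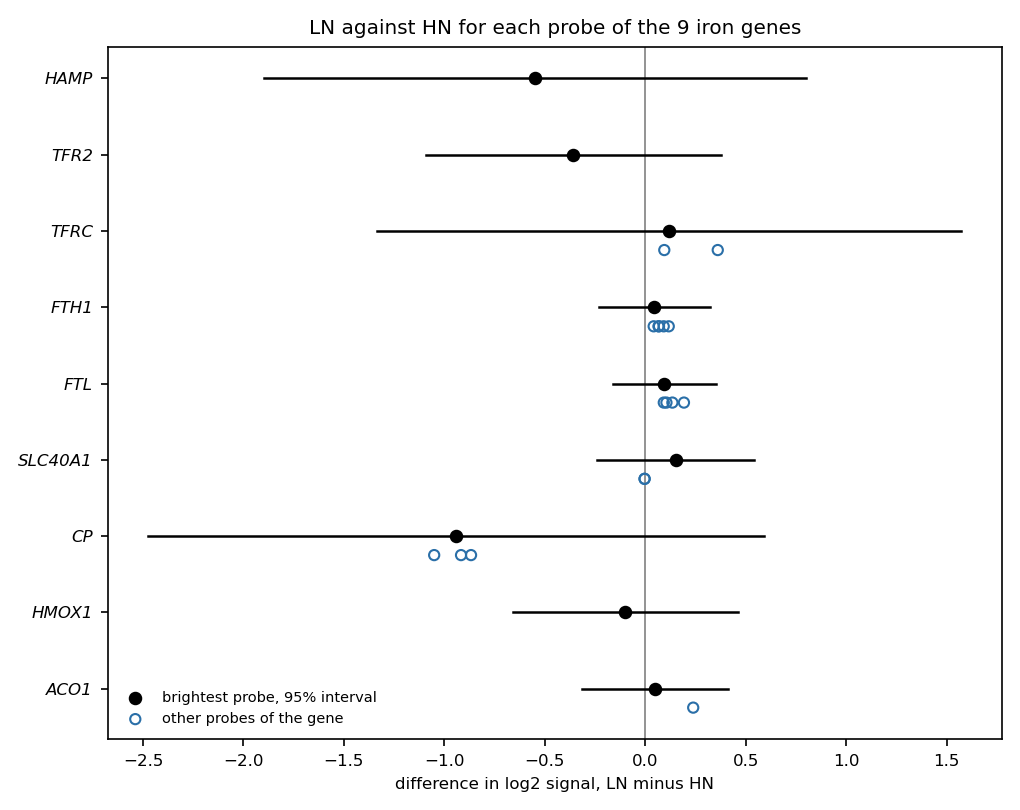
Difference in log2 signal between LN and HN (horizontal axis, LN minus HN) for the brightest probe of each gene (filled, with the 95% interval from limma, n = 4 and 4 fetuses) and for its other probes (open). All intervals include 0, they are narrowest for FTL and FTH1, and the 4 CP probes lie together between -1.05 and -0.87.

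The genes differed widely in their spread between fetuses. From the lowest to the highest of the 8 fetuses, signal rose 10.6-fold for CP, 9.30-fold for HAMP and 5.75-fold for TFRC (2.66-fold after normexp background correction). Without LN fetus L6 it rose 5.77-fold for CP, 3.60-fold for HAMP and 5.75-fold for TFRC, and without HN fetus L10 6.12-fold for HAMP, so the order of these genes depended on single fetuses. Over all 8 fetuses it rose 2.52-fold for TFR2, 1.99-fold for HMOX1, 1.62-fold for SLC40A1, 1.56-fold for ACO1, 1.26-fold for FTL and 1.23-fold for FTH1. These ranges compare fetuses within a gene and say nothing of the order of the genes in abundance.

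To set this spread beside other transcripts, the pooled SD within the groups was ranked among detected genes whose mean log2 signal was within 1 of the gene's own. By this description, HAMP (SD 1.00) exceeded 99.6% of 1101 genes and CP (SD 1.14) exceeded 99.6% of 2698 genes. TFRC (SD 1.08) exceeded 98.5% of 1665 genes, TFR2 90.9% of 2253 and HMOX1 89.5% of 373. The exporter and the storage genes were ordinary in this respect, with SLC40A1 at 68.3% of 240 genes, FTH1 at 57.0% of 121, FTL at 53.7% of 95 and ACO1 at 40.7% of 2115.

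LN fetus L6 took an extreme place more often than any other fetus, as the lowest of 8 for 4 of the 9 genes (HAMP, TFR2, CP and ACO1) and, with quantile normalization, the highest for 2 (TFRC and FTH1). With scaling to the 75th percentile HN fetus L2 was highest for TFRC, and after normexp background correction LN fetus L8 was highest for FTH1. Over all 10860 detected genes, L6 was the lowest fetus for 14.6% and the highest for 14.0%. Its array also had the fewest spots well above background, 32635. HN fetus L10 was highest for HAMP and CP, and over all detected genes it was the lowest for 17.5% and the highest for 14.9%. Whether depth or the state of the sample has a part in these values was not tested.

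**Figure D3:**
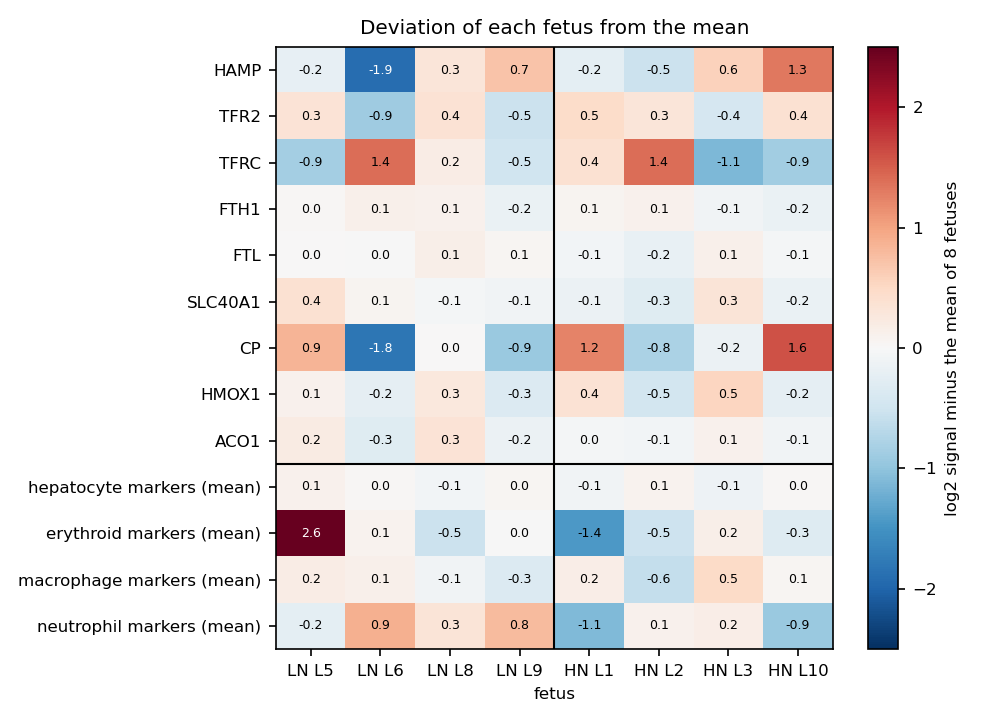
Log2 signal of each iron gene, and mean log2 signal of 4 cell type marker lists, minus the mean of the 8 fetuses (colour scale in log2 units, values printed in the cells, LN left and HN right of the line). LN fetus L6 is low for HAMP, TFR2 and CP and high for TFRC, and LN fetus L5 stands apart by its erythroid markers.

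A pair of transcripts ran against HAMP from fetus to fetus, that of the uptake receptor TFRC and that of ferritin heavy chain. The pairs were examined after these values had been seen, and all 36 pairs of the 9 genes were computed: 4 had an exact permutation p of at most 0.05 for Pearson's r, and 0 after Benjamini-Hochberg adjustment over the 36. For HAMP and TFRC, r was -0.79 (exact permutation p = 0.0135, adjusted p = 0.243) and Spearman's rho was -0.83 (exact permutation p = 0.0154, adjusted p = 0.185). Without LN fetus L6 and HN fetus L2, the fetuses with the most extreme TFRC, r was -0.48 (exact permutation p = 0.336). Their removal also narrows the range of TFRC, and no other fetuses were left out of this relation.

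For HAMP and FTH1, r was -0.79 (exact permutation p = 0.0102, adjusted p = 0.243) and rho was -0.85 (exact permutation p = 0.0115, adjusted p = 0.185), over a range of FTH1 of only 0.29. It was -0.63 without LN fetus L9 and HN fetus L10 (exact permutation p = 0.200), and -0.68 with scaling to the 75th percentile. TFRC and FTH1 rose and fell together (r = 0.76, exact permutation p = 0.0398, adjusted p = 0.358; rho = 0.79, exact permutation p = 0.0254, adjusted p = 0.229), and r was 0.84 without LN fetus L9 and HN fetus L10 (exact permutation p = 0.00972).

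TFR2 and CP, a pair of hepatocyte transcripts, had r = 0.79 (exact permutation p = 0.0272, adjusted p = 0.326) and rho = 0.93 (exact permutation p = 0.00223, adjusted p = 0.0804). Without LN fetus L6 and HN fetus L10, r was 0.61 (exact permutation p = 0.140). A slide holds 4 fetuses of 1 diet, too few for a correlation within it. As deviations from the group means, 3 of the 36 pairs had an exact permutation p within groups of at most 0.05, and 0 after adjustment over the 36. These were HMOX1 and ACO1 (r = 0.65, exact permutation p = 0.0243), HAMP and TFRC (r = -0.81, exact permutation p = 0.033) and FTL and HMOX1 (r = 0.77, exact permutation p = 0.0486), with an adjusted p of 0.402 for each. With scaling to the 75th percentile the plain r of FTL and HMOX1 was 0.03, beside 0.61 with quantile normalization. The other pairs above had r = -0.79 for HAMP and FTH1, 0.76 for TFRC and FTH1 and 0.75 for TFR2 and CP as deviations (exact permutation p = 0.0538, 0.0677 and 0.0764).

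HAMP was set beside TFR2, a sensor upstream of it, and beside acute phase genes, which like HAMP respond to inflammatory signals. With TFR2, r was 0.37 and rho 0.21 (exact permutation p = 0.376 and 0.619, adjusted p = 0.470 and 0.774 over 5 relations). With the mean of 7 acute phase genes, r was -0.24 and rho -0.02 (exact permutation p = 0.584 and 0.977, adjusted p = 0.584 and 0.977). Of these genes SAA3 spread the most, from 3.38 in HN fetus L3 to 10.03 in LN fetus L6. The part of SAA3 in the mean was not tested. LN fetus L6, lowest for HAMP, had the highest acute phase mean of the 8, 13.09, where the other fetuses lay between 12.05 and 12.93. Leaving out 2 fetuses turned the sign of both relations: the former was -0.22 without LN fetuses L6 and L9 (exact permutation p = 0.735), and the latter 0.75 without LN fetus L6 and HN fetus L3 (exact permutation p = 0.0833). TFRC was set beside 10 detected erythroid markers, with r = -0.41 and rho = -0.43 (exact permutation p = 0.345 and 0.299, adjusted p = 0.470 and 0.499), and r was -0.29 without LN fetus L5 and HN fetus L1 (exact permutation p = 0.519).

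The genes of haem iron recycling were set beside 11 detected macrophage markers. HMOX1 followed their mean with r = 0.76 and rho = 0.80 (exact permutation p = 0.0238 and 0.0211, adjusted p = 0.0916 and 0.106). SLC40A1, by its brightest probe, did so with r = 0.74 and rho = 0.71 (exact permutation p = 0.0366 and 0.0576, adjusted p = 0.0916 and 0.144). Neither passed the adjusted threshold. Without HN fetus L2 and LN fetus L9, which had the lowest macrophage means (12.10 and 12.36), r was 0.48 for HMOX1 and 0.63 for SLC40A1 (exact permutation p = 0.353 and 0.178). Leaving out the lowest fetuses also narrows the range of the marker mean. As deviations from the group means, r was 0.76 and 0.82 (exact permutation p within groups 0.0521 and 0.0434, adjusted p = 0.130 for each).

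**Figure D4:**
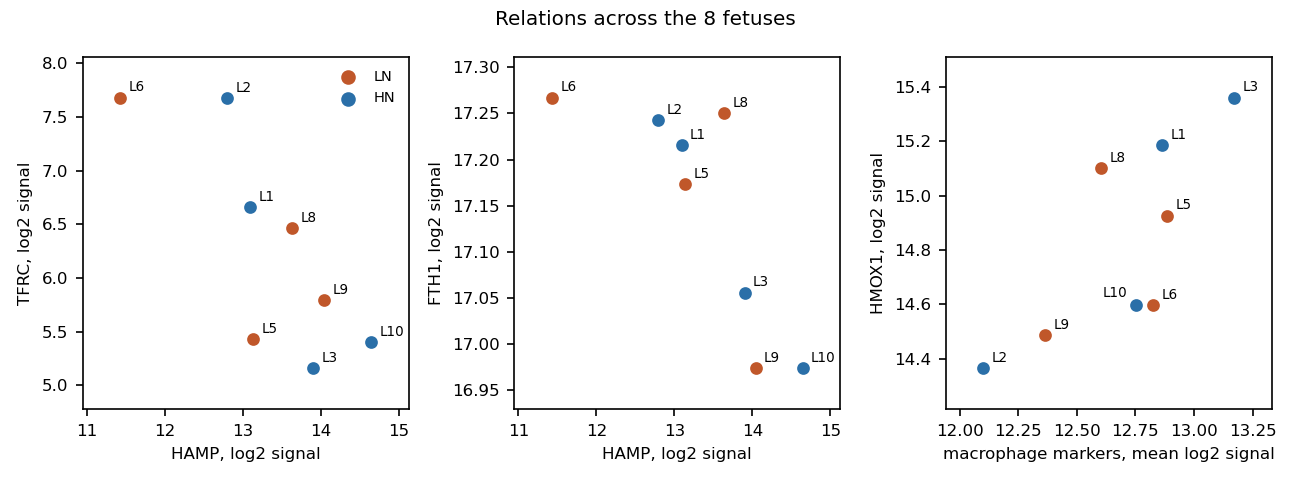
Log2 signal across the 8 fetuses (LN orange, HN blue, named by number): TFRC and FTH1 against HAMP, and HMOX1 against the mean log2 signal of 11 macrophage markers. Over the 8 fetuses r was -0.79, -0.79 and 0.76 (exact permutation with adjusted p = 0.243, 0.243 and 0.0916), r was -0.48, -0.63 and 0.48 without 2 fetuses, and both diets are spread along each panel.

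The 3 detected genes whose signal over the 8 fetuses was most like that of HAMP by Pearson's correlation were RAB32 (r = 0.948, rho = 0.976), EEF2KMT (r = 0.940, rho = 0.929) and MOGAT1 (r = 0.928, rho = 0.857). All were lowest in LN fetus L6 and highest in HN fetus L10, as HAMP was, but over narrower ranges, from 12.37 to 13.18, from 6.98 to 7.95 and from 8.46 to 8.92. They were picked as the most similar of 10860 genes, so the values of r are a description and carry no test.

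Of 71 further genes of iron and haem handling in 6 lists, 55 had a detected probe, and 0 passed an adjusted p of 0.05 by limma or by the methods' t-test. By limma 37 were higher and 18 lower in LN, with a median difference of 0.070 beside 0.0074 over all detected genes. At an unadjusted limma p of 0.05 there was 1 of 55, where 6.05% of all detected genes passed, and 2 of 55 had groups that did not overlap, where 4.14% of all did.

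Among genes for hepcidin control, 14 of 22 were detected, 9 higher and 5 lower in LN. The one past the unadjusted threshold was ACVR1, a type I receptor through which BMP signals reach HAMP. ACVR1 read 6.997, 7.16, 6.87 and 7.28 in LN fetuses L5, L6, L8 and L9, and 6.81, 6.59, 6.86 and 6.34 in HN fetuses L1, L2, L3 and L10. Every LN fetus was above every HN fetus and the difference was 0.43 (± 0.15 SE, limma adjusted p = 0.760, p = 0.0286 by exact permutation). With 4 fetuses against 4, 0.0286 is the smallest p that this test can give. Without LN fetus L6, LN fetus L9, HN fetus L2 or HN fetus L10 the difference was 0.40, 0.36, 0.41 or 0.32, with an unadjusted limma p between 0.0517 and 0.0639. Scaling to the 75th percentile gave 0.315, also not past the unadjusted threshold, and normexp background correction gave 0.26, which was past it. HFE, SMAD7 and IL6 had a probe that was not detected, and BMPR2, TMPRSS6, NEO1, ERFE and IL6ST were not matched.

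In the list for uptake, transport and storage, 12 of 17 genes were detected, 9 higher and 3 lower, with a median of 0.15. The largest difference was that of CYBRD1, a membrane ferric reductase, at -0.53 (± 0.25 SE, limma adjusted p = 0.787, p = 0.171 by exact permutation). The plasma iron carrier transferrin (TF) differed by 0.0049 (± 0.099 SE, limma adjusted p = 0.995). Of the pair of genes for iron-responsive translation, only FBXL5, which marks an iron regulatory protein for destruction, was measured, at 0.085 (± 0.14 SE, limma adjusted p = 0.938). Leaving out LN fetus L5 gave 0.0026, and leaving out LN fetus L6 gave 0.16.

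Haem handling had 7 of 9 genes detected, 3 higher and 4 lower. The largest difference was that of HP, the haemoglobin scavenger haptoglobin, at 0.76 (± 0.60 SE, limma adjusted p = 0.852, p = 0.286 by exact permutation), with values from 4.61 to 7.35 in HN alone. It was 0.30 without HN fetus L1, 1.21 without HN fetus L3 and 0.38 after normexp background correction. For haem synthesis all 9 genes were detected, 6 higher and 3 lower. ALAS2, the first enzyme of haem synthesis in red cell precursors, was 8.78 in LN fetus L5, and between 4.74 and 5.76 in the other LN fetuses. In HN it was between 3.30 and 6.33. Its difference of 1.21 (± 0.90 SE, limma adjusted p = 0.844, p = 0.371 by exact permutation) was 0.36 without LN fetus L5, 0.64 without HN fetus L1 and 0.64 after normexp background correction. ALAS1, the liver's own form of that enzyme, differed by 0.070 (± 0.23 SE, limma adjusted p = 0.967).

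All 12 genes of iron-sulphur cluster assembly were detected, 9 higher and 3 lower. LYRM4, a partner of the desulphurase that supplies the sulphur, read 12.13, 12.23, 12.28 and 12.32 in LN fetuses L5, L6, L8 and L9, and 12.38, 12.46, 12.40 and 12.73 in HN fetuses L1, L2, L3 and L10. Every LN fetus was below every HN fetus, with a difference of -0.25 (± 0.12 SE, limma adjusted p = 0.787, p = 0.0286 by exact permutation). Antisense or overlapping transcripts were not examined.

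**Figure D5:**
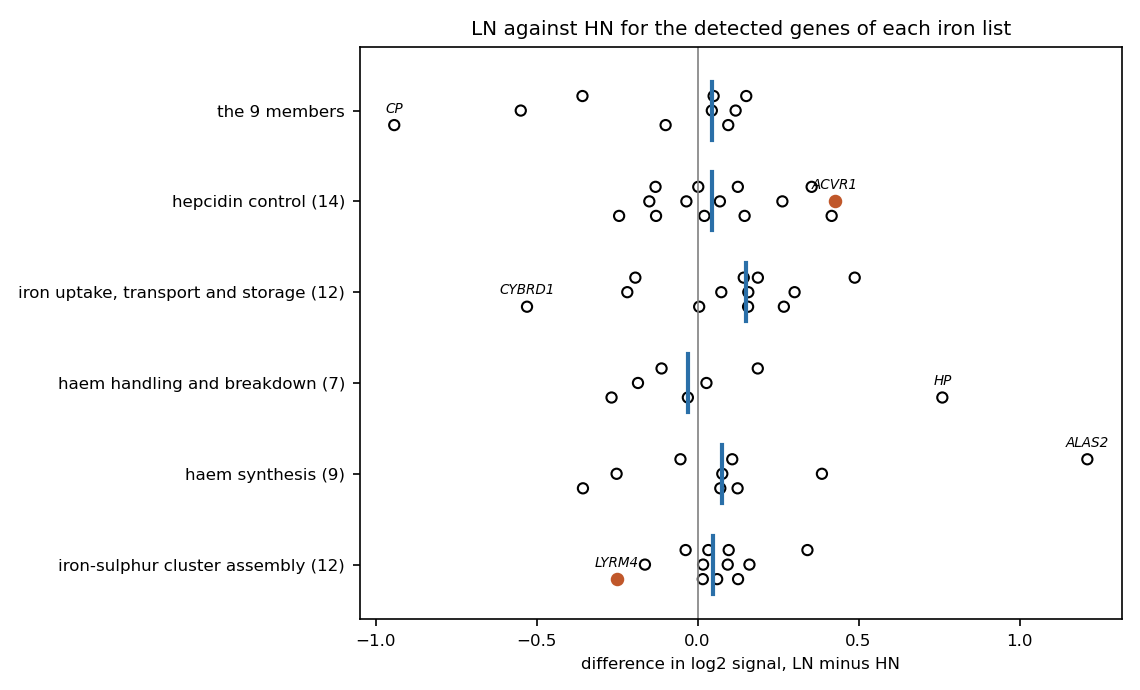
Difference in log2 signal between LN and HN (horizontal axis, LN minus HN) for the 9 measured members and for the detected genes of 5 further lists (number of genes in brackets), with the list median as a blue bar. Filled orange points, ACVR1 and LYRM4, are genes whose LN and HN values do not overlap, and CP, CYBRD1, HP and ALAS2 are named as the genes farthest from 0 in their lists.

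Other cell types differed in level between fetuses and are given beside the iron genes. Of 17 erythroid genes, 10 were detected, 9 of them higher in LN, and their mean log2 signal was between 7.72 and 10.81 in LN and between 6.82 and 8.40 in HN (exact permutation p = 0.286). The value of 10.81 was that of LN fetus L5, in which TFRC was 5.43. KLF1, SLC4A1, EPB42 and RHAG were not detected, and the brightest was HBG, a globin, with a difference of 1.104 (± 0.90 SE, limma adjusted p = 0.858), which was 0.35 without LN fetus L5 and 0.38 without HN fetus L1.

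The macrophage mean lay between 12.36 and 12.88 in LN and between 12.10 and 13.17 in HN (exact permutation p = 0.886), with 11 of 13 genes detected, 4 higher and 7 lower, and MARCO and ADGRE1 not matched. Its brightest gene, C1QA, differed by -0.16 (limma adjusted p = 0.911), or -0.012 without LN fetus L9. Of 7 neutrophil genes, 5 were detected and all were higher in LN, with a mean between 8.77 and 9.90 in LN and between 7.91 and 9.18 in HN (exact permutation p = 0.114). MPO and ELANE, enzymes of the primary granules, were 1.32 and 0.91 higher in LN without overlap (exact permutation p = 0.0286 for each, limma adjusted p = 0.760 for each). That permutation p is the smallest possible here, and 4.14% of all detected genes had groups that did not overlap. For S100A8, S100A9 and S100A12 the groups overlapped. The brightest, S100A12, was 0.48 higher in LN (limma adjusted p = 0.887), or 0.14 without HN fetus L1.

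All 5 detected lymphocyte genes of 6 were lower in LN, with a mean between 9.19 and 9.49 in LN and between 9.35 and 9.72 in HN (exact permutation p = 0.0857). The brightest, CD3D, of T cells, differed by -0.13 (limma adjusted p = 0.945). Endothelial cells, the source of BMP ligands in the liver, had 10 of 11 genes detected, with a mean between 10.26 and 10.80 in LN and between 10.20 and 10.55 in HN and LYVE1 brightest (0.29, limma adjusted p = 0.830, and 0.15 without HN fetus L2). Stellate cell genes, 7 of 7, lay between 9.33 and 9.83 in LN and between 8.88 and 10.12 in HN, with DCN brightest (-0.16, limma adjusted p = 0.911). The part of these cell types in the iron gene values was not tested.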

How the data were processed

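RNA of 8 fetal livers (4 LN, 4 HN) was measured on 1-colour Agilent bovine arrays. The authors deposited scanner output of Agilent Feature Extraction 11.0.1.1, with an intensity per spot after subtraction of background and spatial detrending, on no scale common to the arrays. A second deposited table gives log2 values of 31068 probes, which the methods describe as quantile normalized in GeneSpring GX.

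From the intensities, control spots and 16 probes with an outlier spot were removed, repeated spots were averaged as log2 values, and arrays were quantile normalized over 43637 probes. Accessions were matched to symbols with RefSeq (assembly ARS-UCD2.0). The array was designed on UMD 3.1, and coordinates are left out for that reason. The brightest detected probe, by mean signal, stood for each gene. LN and HN were compared by limma 3.58.1 in R 4.3.3 (lmFit, eBayes, 2-sided, Benjamini-Hochberg over 33439 detected probes), and by exact permutation tests over the 35 divisions of the fetuses. Functions were tested on simulated data.

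The members and lists were chosen with earlier results of these data known. Named genes were the members, the other iron genes with an unadjusted p of at most 0.05, no overlap or the largest difference of their list, the markers with such a p or the highest signal, and the 3 genes most like HAMP. Counts cover every gene, but some that the rule names are not reported here. ALAS1 and TF were added after their values were seen. Alternatives were 75th percentile scaling, normexp (offset 50, on spot medians), the authors' log2 table, other detection filters, other variance settings, the methods' t-test (named there for other measurements), the mean over probes, and each fetus left out. Fetuses are separate animals, and no array repeated another. Sequences of probes, promoters and proteins were not used here.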

Additional observations from a re-analysis of the deposited data

Results flagged for a closer look

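Among 70 sets of 4 fetuses examined for a value far from the others, 1 stood out: CD3D, a T cell gene, read 12.3 in HN fetus L3, where the other HN fetuses lay between 11.64 and 11.72. By chance alone about 1 in 20 such sets would hold a value as far away. Among the iron genes, TFR2 in HN fetus L3 (7.85) came closest, with a gap of 0.826 of the range of the HN fetuses, just short of the limit used, where CD3D had 0.879.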

How the results depend on the processing

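For the 9 iron genes, 0 passed an adjusted or an unadjusted p of 0.05 under every alternative run. With 75th percentile scaling, TFRC turned to -0.0294 and ACO1 to -0.00249, and the other 7 kept their direction under all alternatives other than leaving out a fetus. Of the other iron genes, 1 passed the unadjusted threshold, and 2 did after normexp background correction, without a filter on dim probes, with trend and robust variance, by the methods' t-test and with the mean over probes. With all fetuses, that gene was ACVR1 with quantile normalization and CYBRD1 with 75th percentile scaling. The cause was not tested. With each fetus left out, this count ran from 1 to 4 (4 without HN fetus L3) and its genes changed, to ID1 without LN fetus L6, ATOH8, CYBRD1 and SCARA5 without LN fetus L9, CYBRD1 without HN fetus L2 and UROS without HN fetus L10, the count over all detected probes from 1343 (without HN fetus L10) to 2639 (without HN fetus L3) beside 2113 with all, and the adjusted count from 0 to 1 (1 without LN fetus L6). Differences then ran from -0.328 to 0.603 for TFRC, -0.00531 to 0.108 for FTH1, -0.27 to 0.0619 for HMOX1, -0.0558 to 0.157 for ACO1, -0.296 to 0.000934 for DCN and -0.274 to 0.0224 for CD3D, and r from -0.358 to 0.568 for HAMP with TFR2 and from -0.618 to 0.494 for HAMP with the acute phase genes. HAMP, TFR2, FTL, SLC40A1 and CP kept their direction without any single fetus, although HAMP was only -0.00545 without LN fetus L6. Slide as a block was not run because each slide held 1 group, nor the relation of HAMP with BMP6. No paired analysis was run, because each dam received 1 diet and the design does not pair LN with HN fetuses.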
